A study of Rattus norvegicus with 6 samples.

Results

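T cells read antigen through the T cell receptor, whose signal is carried into the cell by the CD3 chains and is strengthened by costimulatory receptors such as CD28. The kinase Lck phosphorylates the CD3 chains, Zap70 binds to them and phosphorylates the adaptors Lat and Lcp2, and the signal then divides into calcium and NFAT, Ras, and NF-kB branches, which negative regulators damp. The measurements described here are those of 38 genes of this pathway in nuclei of rat colon. The genes were listed by name, with no measured value in the rule. Of the 38 genes, 36 were found among the 17388 genes counted. Cd8a and Stat4 were not matched and were not analysed here. Il7r lies among the genes that the placebo T cell counts used here do not cover, so 35 genes could be compared over the 15108 genes that all count files share.

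Single nuclei RNA sequencing (snRNA-seq) gave counts of unique molecular identifiers (UMIs, 1 per RNA molecule caught) for 1018 nuclei that the study assigned to T cells and 8782 that it assigned to enterocytes, the absorptive cells of the colon lining. The nuclei came from male Wistar rats labelled wildtype, with 3 rats per treatment. Sham rats drank water and received no agent. Colitis was induced in the other rats with 5% dextran sulfate sodium (DSS), a chemical that damages the gut lining, in their water for 3 days. From day 4 through day 7 these rats were given capsules 6 hours apart, without drug for the placebo group and with 50 µg PL8177, a melanocortin 1 receptor agonist, for the PL8177 group. Ages are not given in the sources used here, and each rat is 1 library, read from the tag at the start of every nucleus name. The labels do not list the rats, so n = 3 per treatment rests on that reading.

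The number and depth of the T cell nuclei set what could be seen. The sham libraries GR12, GR13 and GR15 held 74, 19 and 27 T cell nuclei, the PL8177 libraries GR41, GR43 and GR44 held 22, 39 and 35, and the placebo libraries GR22, GR23 and GR24 held 26, 685 and 91. Their T cell nuclei summed to between 8070 UMIs (GR13) and 779009 UMIs (GR23). A count of 0 in GR13 allows a level of up to 3.72 UMIs per 10000, and in GR23 up to 0.0385 (3 counts of the total, counting error only). No barcode was shared between the T cell nuclei of different libraries, and 10 of 9790 barcode sequences occurred in more than 1 library over all nuclei.

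Library GR23 stood apart from its label. The 6 enterocyte genes Slc26a3, Krt20, Vil1, Epcam, Slc9a3 and Cdhr5 together took 150 UMIs per 10000 in its T cell nuclei, against 7.83 to 58.6 in the other 8 libraries and 102 to 261 in the enterocyte files. T cell markers outside the 38 genes, of which 14 of 19 listed were matched, summed to 2.08 per 10000 in GR23 and to between 24.9 and 53.9 in the others. Of the 14, Trat1 and Ccl5 were at 0 in GR23, and 0 to 8 were at 0 in each other library. For this reason the genes are also given in low-epithelial nuclei, those with fewer than 3 UMIs over the 6 enterocyte genes. That kept 54, 16 and 24 sham, 16, 25 and 27 PL8177, and 21, 91 and 80 placebo nuclei. The restriction kept 91 of the 685 nuclei of GR23, and it also kept shallower nuclei. The median UMI count per T cell nucleus went from 742 to 423 in GR23 and from 2091 to 1672 in GR12. The limit does not select T cells, since 9.58% (GR12) to 50% (GR23) of nuclei in the enterocyte files also passed it. Of the 91 GR23 nuclei kept, 7 (7.69%) had a UMI of a CD3 chain. That share was 12.5% (GR13) to 53.7% (GR12) in the other libraries. Other marker lists peaked in single libraries. B cell markers (9 of 10 matched) reached 6.81 per 10000 in GR12 and 0 to 2.08 elsewhere, and macrophage or dendritic cell markers (7 of 10 matched) reached 7.24 in GR15 and 0 to 2.91 elsewhere. Their part in the levels below was not tested.

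The genes fell into a restricted and a shared class by their level in enterocyte nuclei. All levels are UMIs per 10000 UMIs over the common genes. Introns were counted and no gene length was used, so a level is read across nuclei for the same gene, not between genes. The restricted class held 26 of the 35 genes, each below 0.1 per 10000 in the enterocyte files, and Il7r was below it too. The shared class held 9 genes: Plcg1, Nfatc3, Rasgrp1, Malt1, Bcl10, Stat5b, Cblb, Sla2 and Dgka. Because the nuclei had been assigned by their expression, the contrast of T cell with enterocyte nuclei is given as a description with no test, and GR23 is left out of its T cell side.

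Among the restricted genes, the ratio of the T cell to the enterocyte level was 575 for Themis, an adaptor needed in thymocyte selection, with 6.33 against 0.0110 per 10000. It was 487 for Cd247, the CD3 zeta chain, 349 for Lcp2, 310 for the adaptor Skap1, 256 for Ubash3a, 249 for the costimulatory receptor Cd27 and 223 for Ptprc, the CD45 phosphatase that activates Lck. Lower ratios stood in the same class for Lat (36.2) and for Vav1 (46.0), a guanine nucleotide exchange factor. Nfatc1, a calcium-responsive transcription factor, was the restricted gene nearest to the boundary, at 0.0844 per 10000 in enterocytes with a ratio of 21.6. Rasgrp1, which activates Ras, was the shared gene nearest to it, at 0.201 with a ratio of 8.58.

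In the shared class the ratio was 4.73 for Malt1, 3.69 for Stat5b, 3.57 for Nfatc3, 2.51 for Plcg1, 2.24 for Sla2, 1.63 for Cblb and 1.20 for Dgka. Bcl10, the partner of Malt1 in the complex that activates NF-kB, was the 1 gene listed lower in T cell than in enterocyte nuclei, with 0.457 against 1.08 per 10000 and a ratio of 0.425. The NF-kB and calcium branches held genes of both kinds. The NF-kB branch paired restricted Prkcq (2.03 against 0.00857) with shared Malt1 and Bcl10, and the calcium branch paired restricted Nfatc1, Nfatc2 and Camk4 with shared Nfatc3. The 4 CD3 chains, the 3 matched coreceptor and adhesion genes (Cd4, Cd2, Cd5) and the 4 costimulatory receptors were all restricted. Dgka, Cblb and Sla2, negative regulators of receptor signalling, were shared, while Ubash3a was restricted.

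**Figure D1:**
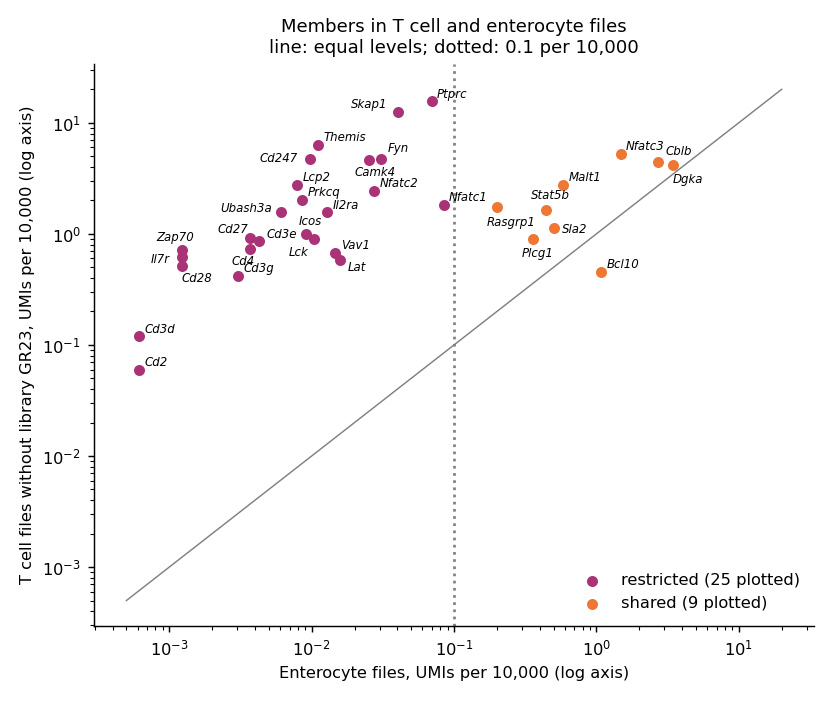
Level of each gene in the enterocyte files (x axis) and in the T cell files without library GR23 (y axis), both in UMIs per 10000 on log axes, with 1 point per gene. Il7r covers sham and PL8177 nuclei alone, and Cd5 and Ctla4 are left out because no enterocyte UMI was counted. The restricted genes lie far above the line of equal levels, the shared genes lie near it, and Bcl10 lies below it.

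Promoter sequence, which the classes had not used, is described next, with no test. RefSeq promoters (build GRCr8, 250 bases before to 50 bases after the gene start, the first listed entry per gene) were matched for 23 restricted genes, Il7r included, and for 8 shared genes. CG dinucleotides, which are crowded in the promoters of widely expressed genes, numbered 0 to 42 in restricted promoters with a median of 7, and 2 to 53 in shared promoters with a median of 26. The median over 27457 promoters was 7. At least 20 CG stood in 13.0% of restricted, 62.5% of shared and 26.3% of all promoters. Fyn (42), Prkcq (29) and Nfatc2 (25) were restricted genes with CG-rich promoters, and the shared genes Sla2 (2), Dgka (10) and Malt1 (19) lay below 20. The letters AGGAAG, the core that ETS transcription factors bind, searched on both strands, occurred in 17 of 23 restricted promoters (73.9%), in 2 of 8 shared promoters (25%) and in 34.3% of all promoters. TGTGGT, the core of RUNX sites, occurred in 6 of 23 (26.1%), in 0 of 8 and in 16.9%. These motifs were chosen after promoter sequences had been seen, and a match describes letters, not binding.

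The promoters of 5 genes show the contrast. Capitals mark each CG and each AGGAAG or its complement CTTCCT, and all are written from the far upstream end to the gene. Cd247 (chr13:80576019-80576318, plus strand) and Il2ra (chr17:71808426-71808725, minus strand), the alpha chain of the interleukin 2 receptor, are restricted genes with 7 and 2 CG and with 2 ETS cores each. Fyn (chr20:44322414-44322713, plus strand), a kinase related to Lck, is the restricted exception, with 42 CG and no ETS core. Stat5b (chr10:86275903-86276202, minus strand), which signals below interleukin receptors, has the most CG of the shared genes, 53, and 1 ETS core. Sla2 (chr3:165841999-165842298, minus strand), an adaptor that lowers receptor levels, is the shared exception with 2 CG.
Cd247: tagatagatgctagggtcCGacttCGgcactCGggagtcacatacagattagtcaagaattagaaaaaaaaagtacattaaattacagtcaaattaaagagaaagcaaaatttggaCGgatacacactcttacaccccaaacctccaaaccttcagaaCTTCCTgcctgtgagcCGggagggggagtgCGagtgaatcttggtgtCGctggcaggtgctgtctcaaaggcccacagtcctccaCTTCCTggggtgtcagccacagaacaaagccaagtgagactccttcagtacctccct
Il2ra: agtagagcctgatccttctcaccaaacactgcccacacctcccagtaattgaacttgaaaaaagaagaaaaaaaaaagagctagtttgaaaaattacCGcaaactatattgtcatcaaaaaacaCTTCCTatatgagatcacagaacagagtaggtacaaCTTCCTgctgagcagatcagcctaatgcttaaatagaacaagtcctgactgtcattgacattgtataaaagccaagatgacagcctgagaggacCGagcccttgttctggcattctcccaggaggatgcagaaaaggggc
Fyn: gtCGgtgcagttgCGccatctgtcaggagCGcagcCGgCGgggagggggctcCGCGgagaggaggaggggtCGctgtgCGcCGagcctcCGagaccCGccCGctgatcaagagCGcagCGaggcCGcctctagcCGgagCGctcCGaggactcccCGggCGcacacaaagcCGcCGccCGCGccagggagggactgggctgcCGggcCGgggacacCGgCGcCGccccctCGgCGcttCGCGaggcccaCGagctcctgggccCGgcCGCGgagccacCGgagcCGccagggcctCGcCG
Stat5b: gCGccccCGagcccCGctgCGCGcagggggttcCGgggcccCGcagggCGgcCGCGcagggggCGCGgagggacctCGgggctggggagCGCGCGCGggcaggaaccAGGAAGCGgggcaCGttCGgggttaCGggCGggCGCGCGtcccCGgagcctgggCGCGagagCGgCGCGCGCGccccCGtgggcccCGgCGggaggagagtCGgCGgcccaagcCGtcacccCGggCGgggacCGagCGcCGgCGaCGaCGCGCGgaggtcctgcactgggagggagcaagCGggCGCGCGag
Sla2: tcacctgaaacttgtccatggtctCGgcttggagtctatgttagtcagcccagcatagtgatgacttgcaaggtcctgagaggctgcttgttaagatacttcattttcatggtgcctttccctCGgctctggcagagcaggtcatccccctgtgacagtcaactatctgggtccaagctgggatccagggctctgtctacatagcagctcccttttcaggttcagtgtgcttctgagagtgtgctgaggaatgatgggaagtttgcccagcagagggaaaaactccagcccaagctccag
In the same annotation the genes Cd3g, Cd3d and Cd3e follow each other on chromosome 8 with no protein-coding gene between them, and Cd28, Ctla4 and Icos do so on chromosome 9.

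**Figure D2:**
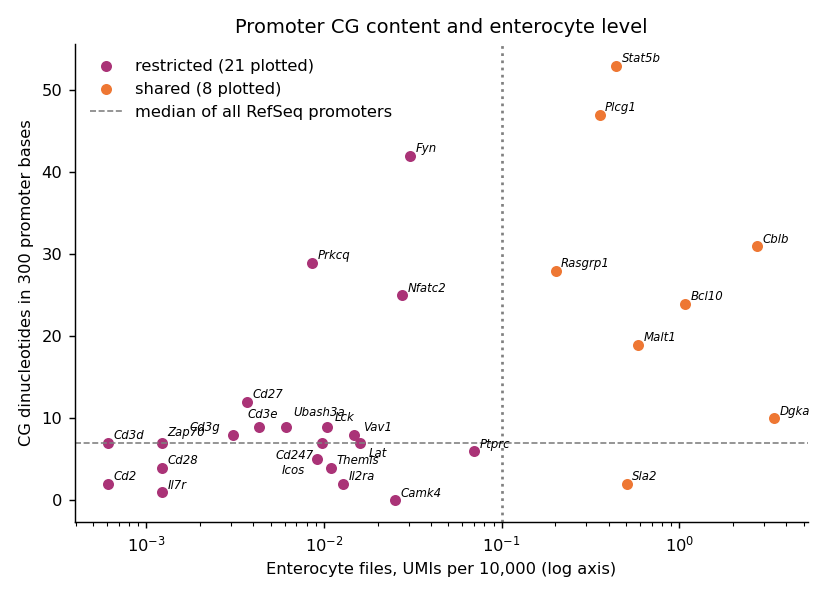
Number of CG dinucleotides in the 300 promoter bases (y axis) against the enterocyte level in UMIs per 10000 (x axis, log), with 1 point per gene that has a promoter entry and an enterocyte UMI. Restricted genes lie mostly near the dashed median of all promoters, 7, while 5 of the 8 shared genes reach 20 or more.

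Summed over its 26 genes, the restricted class separated GR23 from every other T cell library. Sham GR12, GR13 and GR15 held 82.3, 43.4 and 50.7 UMIs per 10000. PL8177 GR41, GR43 and GR44 held 52.8, 40.9 and 59.6. Placebo GR22, GR23 and GR24 held 60.6, 3.52 and 68.8. GR12 alone gave 1933 of the 3718 restricted UMIs (52.0%) and was the 1 library with a UMI of all 26 genes. In all nuclei the remaining placebo libraries lay within the range of the sham libraries. They lay above every PL8177 library, though only by 60.6 (GR22) against 59.6 (GR44). PL8177 overlapped sham, and it overlapped placebo only through GR23. The shared class was more even, with means of 24.1 ± 2.19 (sham), 20.7 ± 3.07 (PL8177) and 18.5 ± 4.22 (placebo; SD, n = 3), and its lowest value was 14.5, in GR23. In enterocyte nuclei the restricted genes summed to 0.184 to 0.901 and the shared genes to 9.96 to 11.5. These are sums over nuclei, so fewer T cells among the nuclei and less RNA per T cell cannot be told apart.

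Over all 35 genes the sham mean was 82.9 ± 20.8, the PL8177 mean 71.8 ± 12.5 and the placebo mean 62.8 ± 39.3 (SD, n = 3 libraries each). Without GR23 the placebo mean was 85.2 ± 9.27 (n = 2). With GR23 the treatment means lay closer together than the SD of the placebo libraries. Without GR23 the PL8177 and placebo means lay further apart than the placebo SD, which then rested on n = 2. In low-epithelial nuclei the restricted class stood at 33.5 per 10000 in GR23, again the lowest value, against 56.9 to 102 in the other 8 libraries. PL8177 (62.8 to 83.6) and placebo without GR23 (73.4 to 82.4) overlapped there. There the 35 genes together had means of 105 ± 23.7 (sham), 98.2 ± 13.8 (PL8177) and 83.9 ± 31.3 (placebo). Without GR23 the placebo mean was 101 ± 11.2. With all T cell nuclei thinned to 300 UMIs, the restricted class in PL8177 (57.9 to 79.4) also overlapped placebo without GR23 (72.2 to 85.9).

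**Figure D3:**
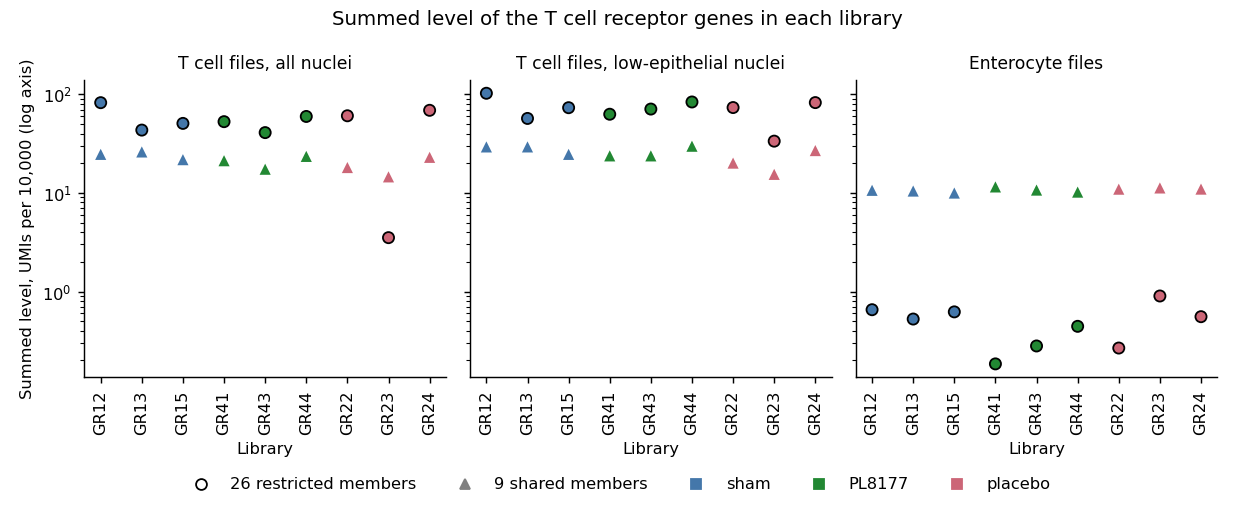
Summed level of the 26 restricted genes (outlined circles) and the 9 shared genes (triangles) in UMIs per 10000 on a log axis, for each of the 9 libraries, coloured by treatment. In the T cell files GR23 falls to 3.52 for the restricted genes, while the sum of its shared genes, 14.5, lies nearer to the other libraries. That sum is also the lowest of the 9 libraries, and Dgka and Cblb hold 478 and 292 of its 1133 UMIs. The gap narrows in low-epithelial nuclei, and enterocyte files hold restricted genes below 1.

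Single genes did not all stand low in GR23. All 26 restricted genes were lower in GR23 than in the other 8 libraries pooled, and 10 of them were lower there than in every other library. Of the 9 shared genes, 7 were lower in GR23 than in the pool. Among these, 4 (Nfatc3, Rasgrp1, Malt1 and Sla2) were lower there than in every other library. Ptprc stood at 0.796 per 10000 in GR23 against 4.96 to 21.1 elsewhere, Skap1 at 0.616 against 5.46 to 15.5, Cd247 at 0.167 against 2.48 to 6.86, and Fyn at 0.398 against 1.82 to 7.33. Bcl10 and Dgka, both shared, were instead higher in GR23 than in any other T cell library, at 1.39 and 6.14 per 10000. The other libraries reached 1.24 for Bcl10 and 5.24 for Dgka. The share of the restricted UMIs in GR23 lay within the range of the other libraries for Ptprc, Skap1 and Fyn, which do not stand for the whole class. Ptprc made up 22.6% (95% exact interval 17.8 to 28.0) of 274 restricted UMIs in GR23 and 22.8% of 3444 in the other libraries. Skap1 made up 17.5% (13.2 to 22.5) and 18.3%. Fyn made up 11.3% (7.82 to 15.7) and 6.91%, and it ran from 4.02% (GR24) to 12.3% (GR44) in the single libraries other than GR23. These intervals cover counting error only. Other restricted genes differed more, in both directions. Of the 274 UMIs in GR23 and the 3444 in the other libraries, Vav1 held 10 and 34, and Il2ra held 13 and 79. Cd27 held 0 and 46, and Ubash3a held 2 and 79. Whether the makeup of the whole class differed in GR23 was not tested.

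The restricted genes were also counted by nucleus. Detection of several genes rises with depth and level, and no expected share was computed, so whether they occur together was not tested. At least 2 different restricted genes were detected in 86.5% of GR12 nuclei, 52.6% of GR13, 59.3% of GR15, 77.3% of GR41, 66.7% of GR43, 62.9% of GR44, 84.6% of GR22 and 68.1% of GR24. In GR23 they were detected in 33 of 685 nuclei, 4.82% (95% exact interval 3.34 to 6.70), and 26 of these 33 lay among its 91 low-epithelial nuclei. In enterocyte nuclei the share was 0 to 2.15%, where a low value follows from how the class was defined. With every nucleus thinned to 300 UMIs the share was 38.1% to 57.1% in the 8 libraries, 2.46% in GR23 and 0 to 0.0800% in enterocytes. T cell nuclei with fewer UMIs than this were left out, 12 of them from sham, 7 from PL8177 and 44 from placebo.

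Nuclei with a CD3 chain UMI varied more between libraries than between treatment means. A UMI of Cd3e, Cd3g, Cd3d or Cd247 was present in 56.8%, 10.5% and 22.2% of the nuclei of sham GR12, GR13 and GR15. The share was 27.3%, 25.6% and 34.3% in PL8177 GR41, GR43 and GR44, with 50.0%, 1.46% and 39.6% in placebo GR22, GR23 and GR24. The 95% exact interval was 1.30 to 33.1 for GR13, where 2 of 19 nuclei had such a UMI, and 0.702 to 2.67 for GR23. Enterocyte nuclei gave 0 to 0.861%, at median depths of 425 to 2283 UMIs against 364 to 2091 in T cell nuclei. The 0 of 1016 in GR41 enterocytes allows up to 0.295% (3 counts of the total), or 0.362% by the exact interval. The mean share was 29.8% ± 24.0 for sham, 29.1% ± 4.59 for PL8177 and 30.3% ± 25.5 for placebo (SD, n = 3). At full depth the sham libraries overlapped those of both other treatments. PL8177 and placebo overlapped only through GR23, and the other placebo libraries lay above every PL8177 library. Without GR12 the sham mean was 16.4%, and the placebo mean was 44.8% without GR23. At an equal depth of 300 UMIs per nucleus the means were 16.4% ± 3.62 (sham), 7.08% ± 6.70 (PL8177) and 16.8% ± 14.5 (placebo). There the sham libraries stood at 20.5%, 14.3% and 14.3% and the PL8177 libraries at 0, 7.89% and 13.3%, which did not overlap, while the placebo libraries, at 20.8%, 0.768% and 28.9%, spanned both. The PL8177 shares rested on 0 of 21, 3 of 38 and 4 of 30 nuclei, and their exact intervals overlapped those of sham.

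**Figure D4:**
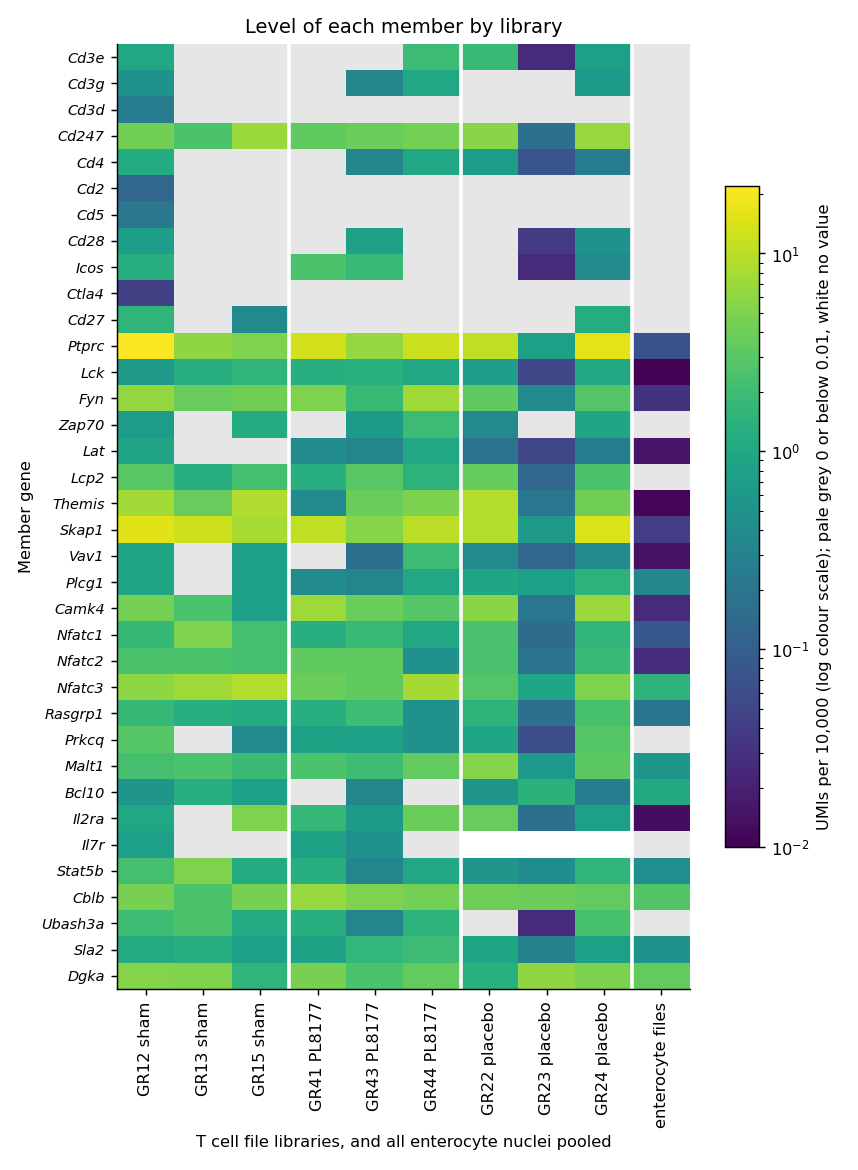
Level of each of the 36 matched genes (rows) in the T cell nuclei of each library and in the pooled enterocyte nuclei (columns), in UMIs per 10000 on a log colour scale. Pale grey cells hold 0 or a value below 0.01, and white cells hold no value because the placebo T cell counts end before Il7r. The GR23 column is darker than the others or grey for most restricted genes and resembles the other libraries for Cblb. For Bcl10 and Dgka it holds the highest level of the T cell libraries.

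Cd247 was the 1 CD3 chain with a UMI in all 9 libraries. Its level was 4.21, 2.48 and 6.86 per 10000 in sham, 3.33, 3.81 and 4.40 in PL8177, and 5.59, 0.167 and 6.73 in placebo, in the library order used above. The sham values overlapped those of PL8177 and of placebo, with or without GR23. PL8177 and placebo overlapped too, with an edgeR log2 fold change of -0.087 (SE 0.866, adjusted p 0.999). Without GR23 the other placebo libraries lay above every PL8177 library, but the share of all genes that separate in this way was not computed. Cd3e, the epsilon chain, was counted in GR12 (0.979), GR44 (1.95), GR22 (1.86), GR23 (0.0257) and GR24 (0.791) and was at 0 in GR13, GR15, GR41 and GR43. Cd3d was counted in GR12 alone, with 6 UMIs, and Cd3g had 21 UMIs over 4 libraries. Cd4, the helper T cell coreceptor, was at 1.15 per 10000 in GR12 and at 0 to 0.977 in the others. Cd2 and Cd5, surface receptors that tune T cell contact and signalling, had 3 and 5 UMIs, all in GR12.

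The costimulatory receptors were sparse. Icos, which binds a ligand on antigen-presenting cells, stood at 1.28 per 10000 in GR12, 2.495 in GR41, 1.82 in GR43, 0.396 in GR24 and 0.0257 in GR23, and at 0 in GR13, GR15, GR44 and GR22. Cd28 was counted in GR12 (0.724), GR43 (0.828), GR24 (0.527) and GR23 (0.0385). Cd27 was counted in GR12 (1.53), GR15 (0.381) and GR24 (1.19). Ctla4, the inhibitory counterpart of Cd28, had 1 UMI, in GR12. Zeros in the shallow libraries are within what a count of 0 allows, so no absence can be read from them. The edgeR filter on low counts left Icos out. With no filter, edgeR gave it a log2 fold change of 3.38 (SE 1.03, adjusted p 0.540) for PL8177 over placebo, and DESeq2 gave 3.47 (SE 1.501) with an adjusted p of 1. It was not called, and its PL8177 and placebo libraries overlapped at 0. Il7r, the interleukin 7 receptor, had 18, 0 and 0 UMIs in sham GR12, GR13 and GR15 and 2, 3 and 0 in PL8177 GR41, GR43 and GR44.

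Differences between treatments were then tested with edgeR on UMIs summed per library, with all genes in the fit. A call needed an adjusted p (Benjamini-Hochberg) below 0.05 together with a log2 fold change beyond 1.5 in either direction for T cells, or 0.5 for enterocytes. Of the 35 genes, 15 passed the filter on low counts in all T cell nuclei, 12 passed it in low-epithelial nuclei, and 12 of the 36 passed it in enterocytes. No gene of the pathway was called in any comparison, and edgeR called none of the 1828, 669 and 9424 genes tested either (percent called 0). DESeq2 called no pathway gene. It called no gene in T cell nuclei and 4 to 115 genes per comparison in enterocytes.

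At an unadjusted p below 0.05, edgeR picked 0 of the 15 genes in every comparison of all T cell nuclei, where the background over all genes was 4.92% (sham against placebo), 0.985% (PL8177 against placebo) and 1.2% (PL8177 against sham). In low-epithelial nuclei it picked 0 of 12, with backgrounds of 4.63%, 4.33% and 1.79% in that order. In enterocytes it picked 0 of 12 in both comparisons with placebo, with backgrounds of 12.4% and 9.24%, and 2 of 12, Skap1 and Nfatc3, for PL8177 against sham, with a background of 6.59%.

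Nfatc3 and Fyn had the lowest p for sham against placebo. Nfatc3, a transcription factor that calcineurin activates, stood at 5.87, 7.43 and 9.15 UMIs per 10000 in sham, at 3.74, 3.31 and 7.82 in PL8177, and at 2.80, 0.963 and 5.01 in placebo. Every sham library lay above every placebo library, GR23 or not, and PL8177 overlapped both. The log2 fold change of sham over placebo was 1.26 (SE 0.589, adjusted p 0.919) in all nuclei and 0.93 (SE 0.491, adjusted p 0.984) in low-epithelial nuclei. Without GR23 it was 0.79 in all nuclei.

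Fyn stood at 6.26, 3.72 and 4.19 per 10000 in sham, 4.99, 1.82 and 7.33 in PL8177, and 3.36, 0.398 and 2.77 in placebo. Its sham and placebo libraries did not overlap either, and its PL8177 libraries spanned both. The log2 fold change was 1.21 (SE 0.708, adjusted p 0.919) for sham and 1.10 (SE 0.722, adjusted p 0.999) for PL8177 against placebo. In low-epithelial nuclei these were 0.67 (SE 0.489, adjusted p 0.984) and 0.63 (SE 0.523, adjusted p 0.973). Without GR23 the fitted values in all nuclei were 0.70 and 0.45. Without PL8177 library GR44, the value for PL8177 in low-epithelial nuclei was -0.032.

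Cblb, a ubiquitin ligase that raises the threshold for activation, had the lowest p for PL8177 against placebo in low-epithelial nuclei. There it stood at 6.89, 7.19 and 6.43 per 10000 in PL8177, 5.22, 3.25 and 4.30 in sham, and 5.498, 2.48 and 3.94 in placebo. All PL8177 libraries lay above all others. The log2 fold change was 0.80 (SE 0.444, adjusted p 0.973) against placebo and 0.62 (SE 0.463, adjusted p 0.999) against sham. In all nuclei Cblb stood at 6.65, 4.97 and 4.40 in PL8177, 4.55, 2.48 and 4.58 in sham and 4.10, 3.75 and 3.43 in placebo, so that PL8177 overlapped sham.

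Themis had the lowest p for PL8177 against sham. It stood at 7.62, 3.72 and 8.77 per 10000 in sham, 0.416, 3.81 and 4.89 in PL8177, and 9.13, 0.205 and 4.09 in placebo. GR41 held 1 Themis UMI in 24052, and the sham and PL8177 libraries overlapped. The log2 fold change was -1.17 (SE 0.981, adjusted p 0.999) in all nuclei and -1.31 (SE 0.731, adjusted p 0.999) in low-epithelial nuclei.

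**Figure D5:**
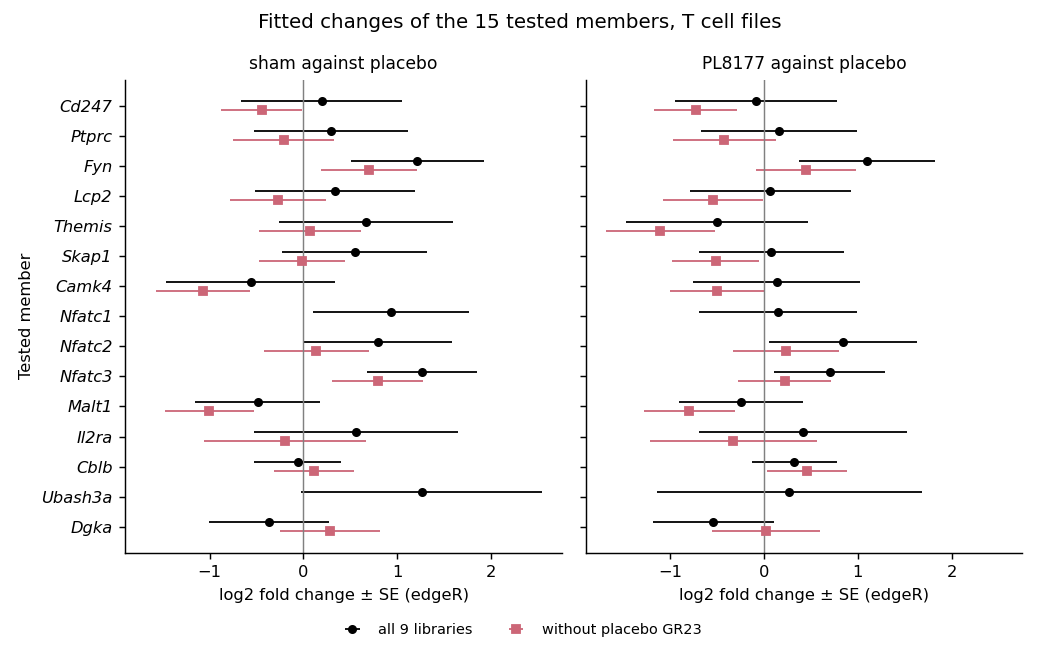
Fitted log2 fold change with its SE (x axis) for the 15 tested genes in all T cell nuclei, for sham (left) and PL8177 (right) against placebo, with all 9 libraries (black) and without placebo library GR23 (red). Nfatc1 and Ubash3a have no red point because they did not pass the filter without GR23. Leaving out GR23 moves most genes to the left, and Fyn and Nfatc3 stay above 0 in both panels.

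The median over the tested genes differed with and without GR23, but the genes were not the same. The fit with GR23 tested 15 genes and the fit without it 14. Nfatc1 and Ubash3a were tested only with GR23, at 0.93 and 1.26 for sham against placebo. How much of the difference came from the change of genes was not tested. Against placebo the median log2 fold change was 0.55 for sham and 0.15 for PL8177, beside -0.12 for all genes in both comparisons. For PL8177 against sham it was -0.17, beside 0.05. Without GR23 the medians against placebo took the other sign, -0.10 for sham and -0.46 for PL8177, and PL8177 against sham stood at -0.25, beside -0.035, -0.013 and 0.014 for all genes. In that fit of 14 genes Camk4, a calcium-dependent kinase, had a log2 fold change of -1.07 (SE 0.501, adjusted p 0.996) and Malt1 one of -1.002 (SE 0.476, adjusted p 0.996) for sham against placebo. Themis had one of -1.17 (SE 0.553) with an adjusted p of 0.9998 for PL8177 against sham. All 3 were at an unadjusted p below 0.05, and none was called. That is 2, 0 and 1 of 14 genes (sham against placebo, PL8177 against placebo, PL8177 against sham), beside 2.52%, 4.53% and 4.82% of the 1390 genes in that fit. In low-epithelial nuclei the medians were 0.28, 0.17 and -0.09 with GR23 (all genes -0.020, -0.024 and 0.0076) and -0.022, -0.00096 and -0.11 without it (all genes -0.017, 0.030 and 0.0077).

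Genes with at least 20 UMIs were also counted by whether their libraries overlapped between treatments. In all T cell nuclei 2 of 31 pathway genes did not overlap for sham against placebo (Fyn and Nfatc3, both higher in sham; 8.03% of all genes), 2 for PL8177 against placebo (Lat and Cblb, both higher in PL8177; 7.01%) and 1 for PL8177 against sham (Bcl10, lower in PL8177; 8.14%). The share of pathway genes, 3.23% to 6.45%, was below that of all genes each time. In low-epithelial nuclei the counts were 2, 2 and 1 of 28 in the same order, where 9.65%, 9.56% and 8.35% of all genes did not overlap. The genes were Fyn and Nfatc3, Lat and Cblb, and Cblb. Lat rested on 1, 2 and 2 UMIs in PL8177 and 1, 4 and 2 in placebo, and Bcl10 on 0, 2 and 0 in PL8177.

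In enterocyte nuclei Nfatc3 and Skap1 had the lowest p for PL8177 against sham. Dgka stood at 2.56, 4.62 and 3.00 per 10000 in sham, 4.75, 3.17 and 4.68 in PL8177 and 3.55, 3.34 and 3.30 in placebo, with a log2 fold change of 0.47 (SE 0.285, adjusted p 0.653) for PL8177 against placebo. Nfatc3 stood at 1.84, 1.85 and 1.82 in sham, 1.42, 1.22 and 1.12 in PL8177 and 1.43, 2.06 and 1.44 in placebo. All PL8177 libraries lay below all others, with a log2 fold change of -0.55 (SE 0.217, adjusted p 0.733) against sham. For sham against placebo it was 0.35 (SE 0.219, adjusted p 0.511), and these groups overlapped. Of the restricted genes, Skap1 stood at 0.0612, 0.137 and 0.104 in sham, 0.0173, 0.0300 and 0 in PL8177 and 0.0209, 0.0322 and 0.0702 in placebo. Its log2 fold change was -2.13 (SE 0.768, adjusted p 0.733) for PL8177 against sham and, for sham against placebo, 1.28 (SE 0.751, adjusted p 0.490). Ptprc had one of -1.73 (SE 0.968, adjusted p 0.631) for PL8177 against placebo. Libraries did not overlap for 0, 2 and 3 of 18 pathway genes (sham against placebo, PL8177 against placebo, PL8177 against sham), beside 18.6%, 17.7% and 12.1% of all genes. These were Nfatc3 and Rasgrp1, and Fyn, Skap1 and Nfatc3, all lower in PL8177.

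Other genes of the pathway gave no further call. Of 64 listed kinases, phosphatases, adaptors, checkpoint receptors and NF-kB and calcium signalling genes, 28 were tested in all T cell nuclei, 11 in low-epithelial nuclei and 42 in enterocytes, and 0 were called. At an unadjusted p below 0.05 the T cell nuclei gave 1 gene (3.57% of 28, beside 4.92% of all genes), Ppp3cb, a catalytic subunit of calcineurin, with a log2 fold change of 1.54 (SE 0.658, adjusted p 0.919) for sham against placebo, and the low-epithelial nuclei gave 0. Enterocytes gave 3 higher and 2 lower of 42 (sham against placebo), 2 and 2 (PL8177 against placebo), and 2 and 1 (PL8177 against sham). These shares, 11.9%, 9.52% and 7.14%, lay near those of all genes, 12.4%, 9.24% and 6.59%. Of these genes, Orai1, the pore of the store-operated calcium channel, had a log2 fold change of 1.04 (SE 0.373, adjusted p 0.311) for sham against placebo.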

How the data were processed

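The authors isolated nuclei from 9 flash-frozen colons, prepared 10x Genomics libraries and counted UMIs with Cell Ranger 6.0.1, introns included, on rat reference 6.0.97. CellBender removed empty droplets. Genes seen in fewer than 3 cells, nuclei under 200 genes and those at 5% mitochondrial reads or more were dropped, and Seurat 4.0.3 clusters gave the cell types. The values the authors deposited are whole UMI counts per gene and nucleus. T cells were compared over the 15108 of 17388 genes that every count file holds complete.

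Counts were summed per library and fitted with edgeR 4.0.16 (TMM, filterByExpr, glmQLFit, glmQLFTest; R 4.3.3), with the 3 treatments in 1 fit, after a test on simulated data. DESeq2 1.42.0, other filters, libraries left out, nuclei with at least 500 genes, other epithelial limits, thinning to 300 UMIs and doublet removal were alternatives. Scrublet (scanpy 1.11.5) marked 64 of 9800 nuclei, 9 of them T cell nuclei of GR23, and these were kept. Fold changes were printed for the 2 genes with the lowest p per comparison, and other genes by role or as chosen after their values were seen. Genes, lists and tests were chosen with earlier results of these data known. The p-values measure the spread between libraries.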

Additional observations from a re-analysis of the deposited data

Results flagged for a closer look

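Il7r, which codes for the interleukin 7 receptor, had UMIs in T cell nuclei that no comparison used, because the placebo T cell counts end before this gene. It had 18 UMIs in sham nuclei, all in GR12, and 5 UMIs in PL8177 nuclei, in GR41 and GR43. The enterocyte nuclei of all treatments together held 2. No other value met a rule for a closer look, and groups of 3 libraries were not tested for an outlying sample.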

How the results depend on the processing

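The count of called pathway genes stayed at 0 in all 9 comparisons under every alternative run. Summing only the 26 restricted of the 35 genes lowers the mean summed level by construction. The fall was more than 1 SD in sham and PL8177, to 58.8 and 51.1 per 10000 for all nuclei. For low-epithelial nuclei it was to 77.5 and 72.4. Thinning to 300 UMIs moved the PL8177 means to 91.7 and 115, and the cause was not tested. It also moved the mean share of PL8177 nuclei with a CD3 chain to 7.08%, from 29.1% at full depth. The sham share went to 16.4% (from 29.8%) and the placebo share to 16.8% (from 30.3%), both within 1 SD. In a given nucleus, thinning can only remove CD3 chain UMIs. The sign of the fold change was checked for the 2 genes with the lowest p per comparison. Of these, Fyn for PL8177 against placebo in low-epithelial nuclei changed sign, to -0.66 in nuclei with at least 500 genes. It ranged from -0.032 (without GR44) to 1.14 (without GR43) when 1 library was left out. No other checked gene changed sign, and the remaining genes given with fold changes were not part of this check. No paired analysis was possible because each rat had 1 treatment and the library tags carry no number shared between treatments. With 3 libraries per treatment, of which GR13 held 8070 UMIs in T cell nuclei, low genes could be neither tested nor called absent. Without GR12 the sham mean of the CD3 share was 16.4% in place of 29.8%.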
